A study of Mus musculus with 8 samples.

Results

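The genes described here make 51 noncollagen parts of the extracellular matrix. The first groups are laminins and their partners in the basement membrane, and fibrillins, fibulins and other elastic fiber proteins. Small leucine-rich proteoglycans and matricellular and other secreted glycoproteins follow. The last group holds lysyl oxidases, which crosslink fibrillar matrix, and the enhancer of procollagen C-proteinase, which helps to process it. The 51 genes were picked by name, with earlier results of these data known, and not by a threshold on measured values. All 51 were found by symbol among the 54146 genes of the deposited count table. Bulk RNA-Seq had been performed on macrophages sorted from epididymal white adipose tissue (eWAT) of 4 obese C57Bl6 male mice, with 1 library of FCGR4+ and 1 of FCGR4- cells per mouse, 8 libraries in all. Every mouse of both populations had eaten a high-fat diet, high in cholesterol by the study's methods, ad libitum for 24 weeks and then 30% less food for 2 weeks. The sort took CD45+, CD11b+ cells that were negative for CD3, B220, Ly6G and SiglecF, and then divided them by FCGR4, an activating Fcγ receptor. The labels give no age. The comparison asks how the transcripts of sorted FCGR4+ cells differ from those of FCGR4- cells of the same mouse.

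Basement membranes are thin sheets in which laminins, which are trimers of α, β and γ chains, are tied by nidogens to a collagen network, with perlecan and agrin as heparan sulfate proteoglycans. Elastic fibers consist of elastin laid on fibrillin microfibrils, and fibulins, emilins and latent TGF-β binding proteins attach to them. Small leucine-rich proteoglycans such as decorin coat collagen fibrils, and lysyl oxidases crosslink both collagen and elastin. In adipose tissue these proteins come mainly from fibroblasts and adipocyte progenitors, from vessel walls and, for the pericellular basement membrane, from adipocytes.

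RefSeq promoter windows of 250 bases before a start, on build mm10, were matched by symbol for 35 of the 51 genes. Sequence is shown here for the gene with the smallest p in its role group, among those that passed the test below and whose window holds at least 100 bases outside annotated exons. These were *Lamb1*, *Ogn* and *Thbs2*, and no gene of the elastic fiber or crosslinker groups met the rule. *Ltbp3* is shown beside them as a gene of high level whose difference lay near 0. The stretches are 191 bases at chr12:31265043-31265233 for *Lamb1* and 250 bases each at chr13:49607765-49608014 for *Ogn*, chr17:14694263-14694512 for *Thbs2* and chr19:5740650-5740899 for *Ltbp3*, read 5′ to 3′ on the gene's strand, which is minus for *Thbs2* and plus for the others. Capitals mark letters that were searched for on both strands. The AP-1 motif was searched as TGANTCA and the TEAD motif was searched as GGAATG. For the SMAD motif the letters CAGAC were used, for the GC box the letters GGGCGG, and for the TATA box the letters TATAAA.
Lamb1: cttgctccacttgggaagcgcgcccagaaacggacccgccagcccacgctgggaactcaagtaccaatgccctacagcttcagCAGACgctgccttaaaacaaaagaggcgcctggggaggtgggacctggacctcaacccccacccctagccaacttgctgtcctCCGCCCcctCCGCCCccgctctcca
Ogn: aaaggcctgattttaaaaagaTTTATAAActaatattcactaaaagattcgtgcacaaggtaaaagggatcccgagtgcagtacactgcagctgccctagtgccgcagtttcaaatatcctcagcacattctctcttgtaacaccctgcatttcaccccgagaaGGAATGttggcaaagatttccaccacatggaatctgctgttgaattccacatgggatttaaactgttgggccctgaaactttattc
Thbs2: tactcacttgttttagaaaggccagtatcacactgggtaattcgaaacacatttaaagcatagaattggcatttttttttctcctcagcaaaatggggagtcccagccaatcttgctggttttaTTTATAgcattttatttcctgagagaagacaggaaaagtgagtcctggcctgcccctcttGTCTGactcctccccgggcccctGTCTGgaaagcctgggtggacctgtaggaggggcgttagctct
Ltbp3: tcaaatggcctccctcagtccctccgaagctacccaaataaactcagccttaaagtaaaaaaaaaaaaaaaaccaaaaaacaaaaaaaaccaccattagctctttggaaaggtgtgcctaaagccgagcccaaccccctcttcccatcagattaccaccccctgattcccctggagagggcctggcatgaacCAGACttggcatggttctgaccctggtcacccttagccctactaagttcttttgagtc

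*Lamb1* showed 2 GC box matches and 1 SMAD match, *Ogn* 1 TEAD match and 2 TATA box matches that overlap each other, *Thbs2* 2 SMAD matches and 1 TATA box match, and *Ltbp3* a single SMAD match. No motif searched for was held by all 3 of the genes that passed the test. Over the 35 windows, GC box letters occurred in 18 genes (51.4%), against 32.7% of all 32851 promoter windows of that length. SMAD letters occurred in 17 (48.6% against 42.2%), TATA box letters in 6 (17.1% against 12.4%), TEAD letters in 4 (11.4% against 12.6%) and AP-1 letters in 2 (5.71% against 6.75%). RefSeq starts lay 64491 bases from the deposited gene start for *Podn*, 3103 for *Sparc*, 2816 for *Lama2*, 2380 for *Pcolce* and 1555 for *Fbn1*. For the genes shown, the distance was 59 (*Lamb1*), 31 (*Ogn*), 27 (*Thbs2*) and 4 bases (*Ltbp3*). The windows of *Fbn1*, *Fbln2*, *Emilin1*, *Ltbp2* and *Svep1* lay wholly in annotated exons. A match describes the letters of a window and is not a binding site.

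*Fcgr4* itself, the gene of the sorted receptor, was measured first as a check of the labels. It stood at 215, 139, 208 and 236 CPM (counts divided by TMM-scaled library size) in FCGR4+ libraries of mice 1 to 4 and at 48.5, 52.2, 81.1 and 82.9 in FCGR4- libraries. Its log2 fold change was 1.61 ± 0.17 SE, higher in 4 of 4 mice (adjusted p = 0.0162). Of 13 macrophage markers, 0 passed the test in either direction in the paired edgeR fit, while 7 were higher at an unadjusted p under 0.05, the same number by DESeq2. Their summed level was 31048 to 55454 CPM in FCGR4+ and 24828 to 48986 in FCGR4- libraries, led by *Lyz2* (lysozyme), and macrophage transcripts were thus abundant in both populations. Total counts were between 35992794 and 66856746 per library, and 3 counts correspond to 0.0440 to 0.0883 CPM.

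Noncollagen matrix genes that differed between the populations were lower in FCGR4+ macrophages, among them laminin chains, fibrillin 1, lumican, biglycan and lysyl oxidase-like 1. Of the 51 genes, 50 had at least 10 counts in at least 4 libraries and were tested, 46 of them with at least 10 counts in every library. In edgeR's quasi-likelihood fit, which paired the libraries of each mouse and used a threshold of 0.1 on the p adjusted over all 17095 tested genes, 12 were lower in FCGR4+ cells and 0 were higher. At an unadjusted p under 0.05, 37 were lower and 0 higher, where 6.67% of all tested genes were lower. Among all tested genes the test at the adjusted threshold called 1.19% lower and 0.0819% higher. The median log2 fold change of the 50 genes was -1.64, against -0.00254 over all tested genes, and 48 of the 50 values lay below 0, against 50.3% of all tested genes. In 36 of the 50, the FCGR4+ library was lower in 4 of 4 mice, which held for 10.4% of all tested genes, and in 16 the FCGR4+ libraries all lay below the FCGR4- libraries, which held for 3.02%.

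The number past the threshold depended on single mice and on the method, and each of the 51 genes that passed in the following fits was lower. Without mouse 1 there were 3 genes, without mouse 2 there were 10, without mouse 3 there were 6 and without mouse 4 there were 3. The same fits called 0.48%, 0.714%, 0.901% and 0.515% of all tested genes lower in that order, so that fewer genes passed over the whole table as well. DESeq2 with the same pairing called 38 lower and 0 higher, where it called 4.87% of all tested genes lower, and edgeR without the replicate block called 4 (*Lamb1*, *Lamb2*, *Nid1* and *Lum*), where it called 0.275%. *Lamb1* and *Fstl1* passed whichever mouse was left out, and *Thbs2* failed whichever was left out. *Fbn1*, *Fbln2*, *Ccdc80* and *Loxl1* passed without mouse 2 and failed without mouse 1, 3 or 4. *Lamb2*, *Nid1* and *Bgn* passed without mouse 2 or 3, *Ogn* without mouse 1 or 3 and *Lum* without mouse 4, and each failed without any other mouse.

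**Figure D1:**
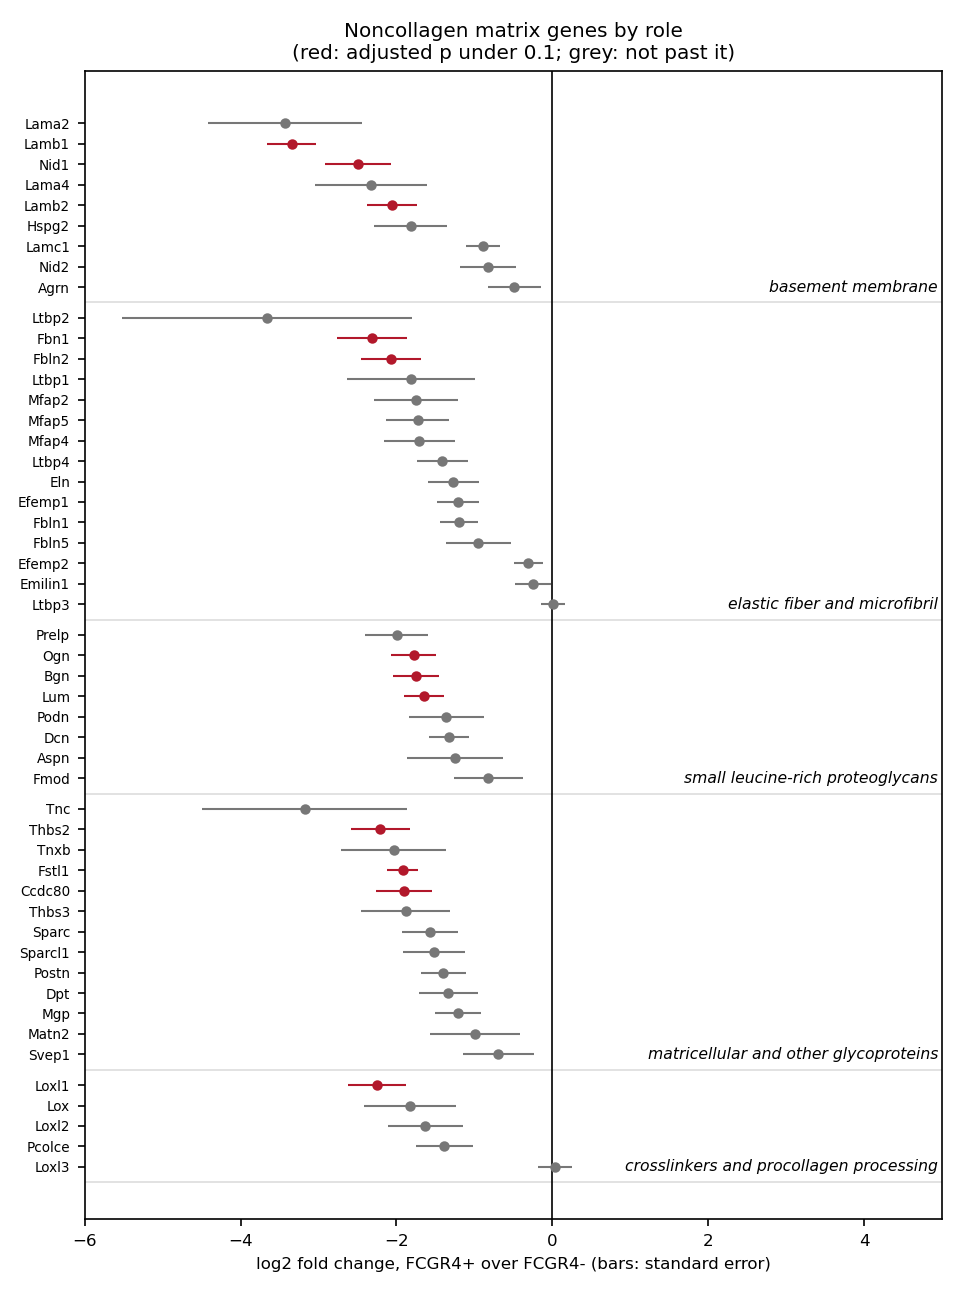
Log2 fold change (FCGR4+ over FCGR4-, x axis) of the 50 tested matrix genes in 5 role groups, with the standard error as bars; red marks the 12 genes with an adjusted p under 0.1. All red points lie left of 0, and *Ltbp3* and *Loxl3* sit near 0, where the sign turned with the scaling.

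Together the 51 genes made up 0.0352% to 0.0492% of the TMM-scaled counts in FCGR4+ libraries and 0.0642% to 0.176% in FCGR4- libraries. The summed level was 352, 387, 492 and 452 CPM in FCGR4+ cells of mice 1 to 4 and 1322, 642, 1761 and 830.2 CPM in FCGR4- cells. The populations did not overlap. Within the FCGR4- libraries, that of mouse 2 stood apart at the low end, with the lowest value for 37 of the 50 genes, and that of mouse 3 held the highest value for 30. The FCGR4- library of mouse 2 was also the smallest, at 35992794 counts, and the part of depth was not tested. These are bulk libraries, in which fewer cells of a type and less RNA per cell cannot be told apart.

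The basement membrane group had 9 tested genes, of which 3 fell and 0 rose, with a median log2 fold change of -2.06. *Lamb1* (chr12:31265234-31329644, plus strand), the laminin β1 chain, had the smallest p of the 51 genes. It was measured at 1.21, 0.562, 1.2 and 0.374 CPM in FCGR4+ cells of mice 1 to 4 and at 15.5, 3.06, 12 and 5.63 CPM in FCGR4- cells. The 2 ranges were far apart, with a log2 fold change of -3.34 ± 0.31 SE, which is 10.2-fold lower (adjusted p = 0.00902). *Lamb2* (chr9:108479736-108490530, plus strand), the β2 chain of vessel and nerve basement membranes, was at 1.92, 1.93, 1.95 and 2.55 CPM against 10.2, 4.03, 13.1 and 9.88 CPM. Its FCGR4+ values were nearly equal in mice 1 to 3 and higher in mouse 4, and it fell with a log2 fold change of -2.06 ± 0.32 SE (adjusted p = 0.0544). *Nid1* (chr13:13437551-13512269, plus strand), nidogen 1, the linker between laminin and collagen IV, was at 5.23, 7.18, 3.29 and 3.03 CPM against 35.8, 13.3, 39.2 and 18.8 CPM. Every FCGR4+ value lay below every FCGR4- value, with a log2 fold change of -2.49 ± 0.42 SE (adjusted p = 0.0666).

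*Lamc1* (chr1:153218922-153332786, minus strand), the γ1 chain shared by most laminins, had a CPM among the highest of the group and did not pass. It was at 11.4, 17.7, 8.5 and 10 CPM in FCGR4+ and 26.1, 22.8, 22.5 and 14.9 CPM in FCGR4- libraries, lower in 4 of 4 mice but with overlapping ranges, and its log2 fold change was -0.88 ± 0.22 SE (adjusted p = 0.19). The α chains had low counts. *Lama2* and *Lama4* had log2 fold changes of -3.43 and -2.32 with standard errors of 0.984 and 0.722, and the adjusted p was 0.274 and 0.321. *Lama2* had 0 counts in the FCGR4+ library of mouse 3. *Lama5* held at most 10 counts in any library and was not tested. The values were -1.82 for *Hspg2* (perlecan), -0.83 for *Nid2* (nidogen 2) and -0.49 for *Agrn* (agrin), none past the threshold.

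In the elastic fiber and microfibril group, 2 of 15 genes fell, 0 rose and the median was -1.41. *Fbln2* (chr6:91212455-91272540, plus strand), fibulin 2, was measured at 8.36, 11.2, 12.6 and 14.9 CPM in FCGR4+ and 59.2, 22.6, 106 and 37.7 CPM in FCGR4- cells. The ranges did not overlap, and the log2 fold change was -2.07 ± 0.38 SE (adjusted p = 0.0846). *Fbn1* (chr2:125300594-125507993, minus strand), fibrillin 1, the backbone of microfibrils, was at 2.12, 4.68, 5.37 and 5.04 CPM against 25, 9.74, 46.4 and 14.5 CPM. It fell with a log2 fold change of -2.31 ± 0.45 SE and was the gene just inside the threshold (adjusted p = 0.0999). Neither *Fbln2* nor *Fbn1* passed without mouse 1, 3 or 4 or without the replicate block, and both passed by DESeq2. Of the annotated exon bases of *Fbn1*, 20.1% overlap a gene on the other strand. Read pairs on exons shared by genes were left uncounted and strand was not used, so pairs on these shared bases enter the count of neither gene.

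Several elastic fiber genes had values near 0 at levels per length that led the group in FCGR4+ cells. *Ltbp3* (chr19:5740904-5758532, plus strand), a carrier of latent TGF-β, was at 38.8, 41.2, 26.1 and 23.7 CPM in FCGR4+ and 40.5, 36, 22 and 30.5 CPM in FCGR4- cells. It was lower in 2 of 4 mice, and its log2 fold change of 0.00 ± 0.15 SE changed sign with the scaling method (adjusted p = 0.994). *Emilin1*, a glycoprotein at the surface of elastic fibers, had a log2 fold change of -0.25 ± 0.23 SE, and *Efemp2* (fibulin 4), which brings lysyl oxidase to elastin, had -0.31 ± 0.18 SE. Neither passed (adjusted p = 0.723 and 0.603). The remaining genes of the group had lower values that did not pass either. *Efemp1* and *Fbln1* were at -1.21 and -1.20, *Fbln5* at -0.95, *Eln* (elastin) at -1.27, *Mfap2*, *Mfap4* and *Mfap5* at -1.75, -1.70 and -1.73. The other TGF-β binding proteins were at -1.81 (*Ltbp1*), -3.66 (*Ltbp2*) and -1.41 (*Ltbp4*), and *Ltbp2* had 0 counts in 2 FCGR4+ libraries.

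Of the 8 small leucine-rich proteoglycans, 3 fell and 0 rose, with a median of -1.50. *Lum* (chr10:97565128-97572703, plus strand), lumican, a keratan sulfate proteoglycan that spaces collagen fibrils, was at 15.7, 16.6, 21.5 and 22.9 CPM in FCGR4+ and 77.2, 45.3, 87.9 and 39.5 CPM in FCGR4- cells. The populations did not overlap, and the log2 fold change was -1.65 ± 0.26 SE (adjusted p = 0.0555). *Bgn* (chrX:73483602-73495933, plus strand), biglycan, also known as a ligand of Toll-like receptors, was at 14.7, 11.3, 15.6 and 13.6 CPM against 70.1, 21.2, 89.8 and 32.9 CPM. Its FCGR4+ values were tight and the FCGR4- values spread widely, with a log2 fold change of -1.75 ± 0.29 SE (adjusted p = 0.0649). *Ogn* (chr13:49608046-49624501, plus strand), osteoglycin, was at 5.63, 3.95, 9.33 and 6.54 CPM against 40.4, 11.7, 27 and 15 CPM. It fell with a log2 fold change of -1.78 ± 0.29 SE, again without overlap (adjusted p = 0.0602).

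*Dcn* (chr10:97479609-97518143, plus strand), decorin, had the highest level per length of all 51 genes and lay just outside the threshold. It was at 69.2, 53.5, 125 and 117 CPM in FCGR4+ and 316, 104, 359 and 182 CPM in FCGR4- cells. Each FCGR4+ value lay below its own mouse's FCGR4- value, but the highest FCGR4+ value passed the lowest FCGR4- value, and the log2 fold change was -1.32 ± 0.26 SE (adjusted p = 0.100018). *Prelp* (chr1:133910304-133921414, minus strand), a proteoglycan that anchors basement membrane to connective tissue, was next outside, at 2.55, 1.35, 1.49 and 2.76 CPM against 10.3, 2.94, 16.3 and 7.38 CPM. Its populations did not overlap, and the log2 fold change was -2.0 ± 0.41 SE (adjusted p = 0.115). *Podn*, *Aspn* and *Fmod* were low and gave -1.36, -1.24 and -0.82, none past the threshold.

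**Figure D2:**
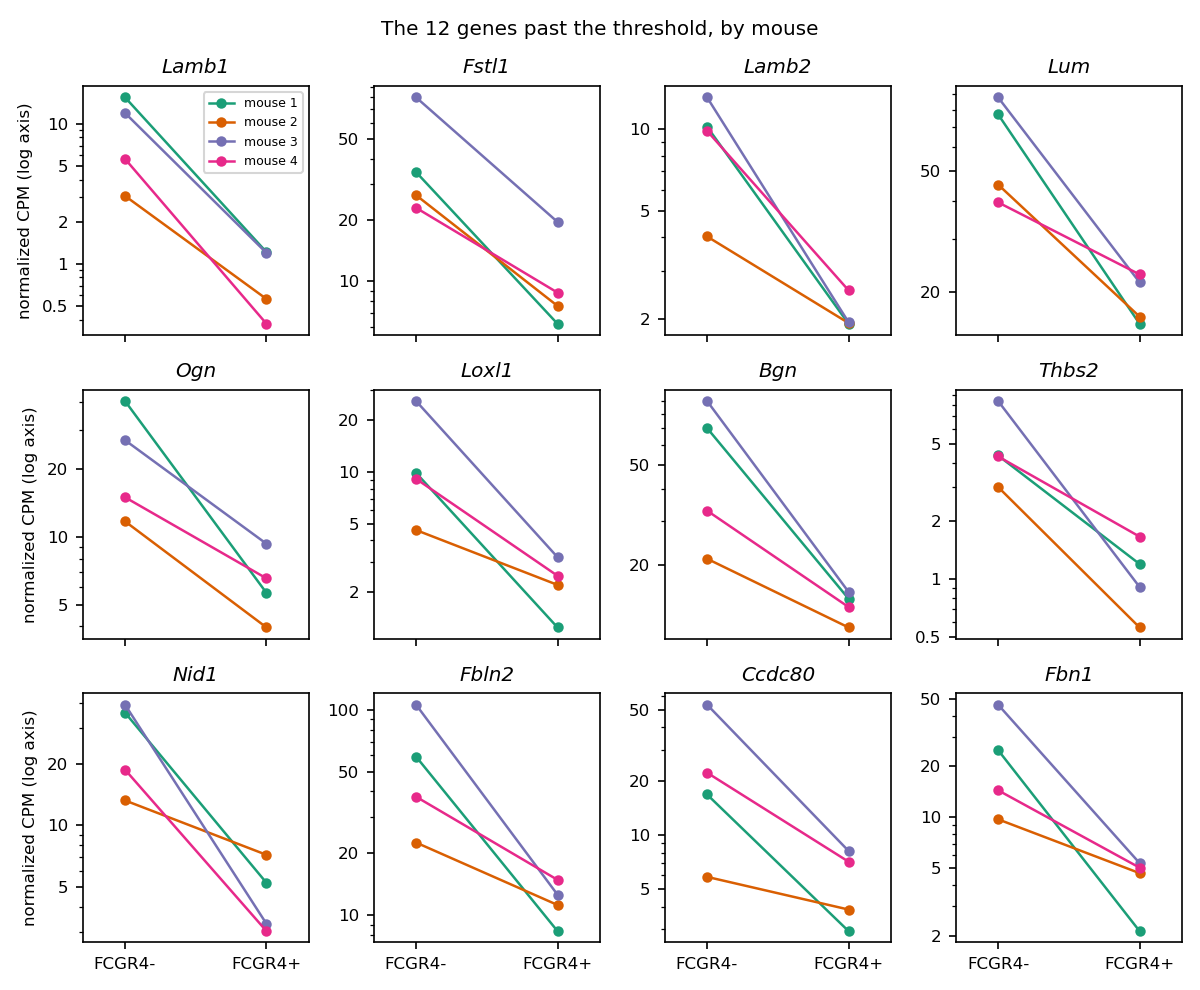
Normalized CPM (log axis, own range per panel) of the 12 genes with an adjusted p under 0.1, with 1 line per mouse from its FCGR4- to its FCGR4+ library. Every line runs downward, and mouse 2 starts from the lowest FCGR4- value in most panels.

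Among the 13 matricellular and other glycoproteins, 3 fell and 0 rose, with a median of -1.57. *Fstl1* (chr16:37776873-37836514, plus strand), follistatin-like 1, a secreted protein of the SPARC family, was at 6.2, 7.59, 19.6 and 8.82 CPM in FCGR4+ and 34.4, 26.5, 79.9 and 23 CPM in FCGR4- cells. The drop was seen in every mouse, with log2 ratios of -2.46, -1.80, -2.03 and -1.38, and the log2 fold change was -1.92 ± 0.20 SE (adjusted p = 0.0152). *Thbs2* (chr17:14665500-14694235, minus strand), thrombospondin 2, an inhibitor of angiogenesis, was at 1.2, 0.562, 0.91 and 1.66 CPM against 4.37, 3, 8.38 and 4.32 CPM. No FCGR4+ value reached the FCGR4- range, and the log2 fold change was -2.21 ± 0.38 SE (adjusted p = 0.0666). *Ccdc80* (chr16:45093402-45128077, plus strand), a secreted matrix protein of adipose tissue, was at 2.92, 3.85, 8.18 and 7.12 CPM against 16.9, 5.86, 53.6 and 22.3 CPM. Of the 12 genes it alone had overlapping populations, and its log2 fold change was -1.90 ± 0.36 SE (adjusted p = 0.0949).

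*Sparc* (chr11:55394500-55423183, minus strand), osteonectin, a collagen-binding matricellular protein, was second to *Dcn* in level per length and did not pass. It was at 20.8, 31.6, 63.3 and 57 CPM in FCGR4+ and 136, 47.6, 267 and 107 CPM in FCGR4- cells, lower in 4 of 4 mice with overlapping ranges, and its log2 fold change was -1.57 ± 0.36 SE (adjusted p = 0.164). The tenascins *Tnc* and *Tnxb* were at -3.18 and -2.04 with standard errors of 1.31 and 0.677, and *Tnc* had 0 counts in the FCGR4+ library of mouse 2. *Thbs3* was at -1.88, *Sparcl1* at -1.52, *Postn* (periostin) at -1.40, *Dpt* (dermatopontin) at -1.34, *Mgp* (matrix Gla protein, an inhibitor of calcification) at -1.21, *Matn2* (matrilin 2) at -0.99 and *Svep1* at -0.69. None of these passed the threshold, although *Postn* and *Sparcl1* had populations without overlap.

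The crosslinker and processing group had 5 genes, of which 1 fell and 0 rose, and its median was -1.63. *Loxl1* (chr9:58287738-58313186, minus strand), the lysyl oxidase most tied to elastic fibers, was at 1.25, 2.2, 3.19 and 2.49 CPM in FCGR4+ and 9.87, 4.59, 25.8 and 9.11 CPM in FCGR4- cells. The populations did not overlap, and the log2 fold change was -2.25 ± 0.37 SE (adjusted p = 0.0647). It did not pass without mouse 1, 3 or 4 or without the replicate block, and it passed by DESeq2. *Lox*, the founding lysyl oxidase, was at 1.65, 4.68, 8.86 and 5.69 CPM against 5.6, 66.7, 31.6 and 5.13 CPM. The highest value was in the FCGR4- library of mouse 2, which was the lowest of the FCGR4- libraries for most genes. The mice gave log2 ratios of -1.74, -3.82, -1.83 and 0.15, and the log2 fold change of -1.82 ± 0.59 SE did not pass (adjusted p = 0.346).

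*Loxl3* (chr6:83034173-83052562, plus strand), another family member, was at 21, 19.6, 9.47 and 14 CPM against 18.6, 12.8, 14.3 and 14.5 CPM. It was lower in 2 of 4 mice, with a log2 fold change of 0.04 ± 0.22 SE whose sign turned when counts were scaled by library size alone (adjusted p = 0.962). *Pcolce*, the enhancer of procollagen C-proteinase, was at -1.38 and *Loxl2* at -1.63, neither past the threshold. For *Loxl2*, 45% of its 50-base words also occur in other genes, and since a pair with several matches counted for each match, its level is uncertain. *Loxl3* and *Svep1* overlap a gene on the other strand over 11.6% and 13.9% of their exon bases. For 33 of the 51 genes at most 1% of the exon bases or words were shared.

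**Figure D3:**
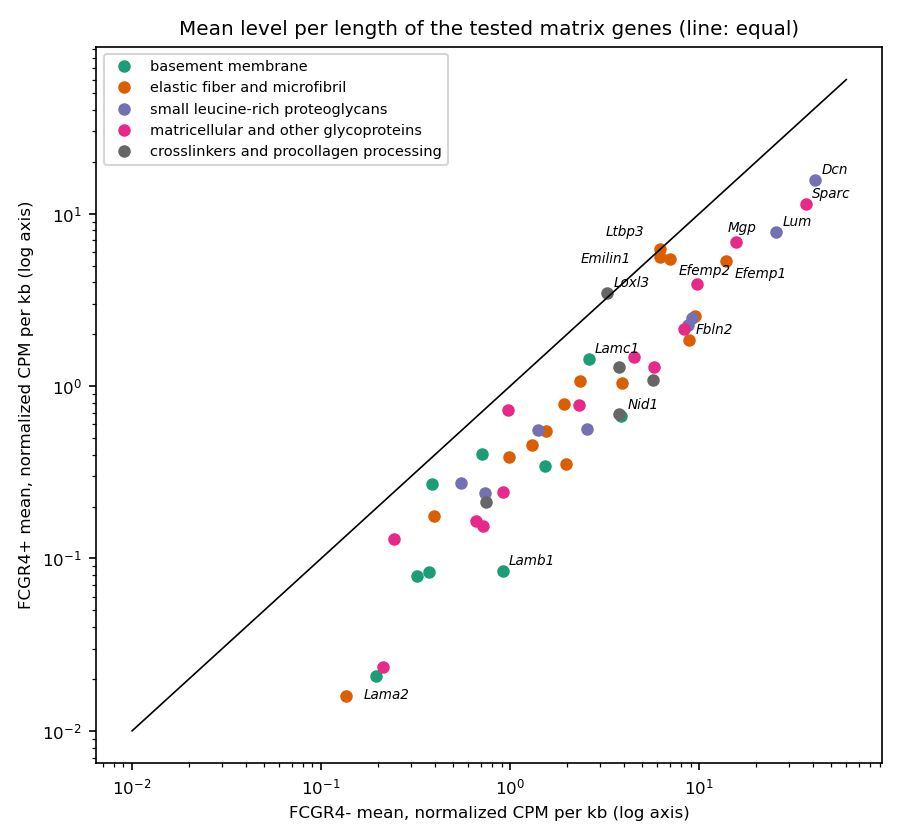
Mean normalized CPM per kb of gene length in FCGR4- (x axis) and FCGR4+ (y axis) libraries, both log axes, for the 50 tested genes colored by role, with a line at equal levels. *Dcn* and *Sparc* are highest in both, nearly all points lie below the line, and *Ltbp3*, *Emilin1* and *Loxl3* lie on or near it.

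Divided by gene length, the order of mean levels began the same way in both populations, with *Dcn* (15.6 CPM per kb in FCGR4+ and 41.1 in FCGR4- cells), *Sparc* (11.4 and 36.8), *Lum* (7.83 and 25.5) and *Mgp* (6.85 and 15.6). The order then parted. *Ltbp3* was 5th in FCGR4+ cells at 6.25 CPM per kb and 13th in FCGR4- cells at 6.21, and *Emilin1* was 6th at 5.61 and 14th at 6.17. Their own means were close in both populations, while those of most other genes were lower in FCGR4+ cells. Fibulin 2 took the reverse course, from 9th (8.85) in FCGR4- to 15th (1.85) in FCGR4+ cells. For the 50 pairs of neighbors in this order, the ranges over 4 libraries were separate for 0 pairs in FCGR4+ and 1 pair in FCGR4- cells. At the median over the 50 tested genes, the highest FCGR4- value was 3.95 times the lowest, and over the 47 genes with counts in every FCGR4+ library the highest FCGR4+ value was 2.56 times the lowest.

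The size of the difference varied by mouse. The median log2 ratio of the 50 genes over mice 1 to 4 was -2.22, -0.67, -2.03 and -0.90, against -0.05 to 0.03 for all tested genes. The FCGR4+ library was the lower one for 46, 41, 49 and 47 of the 50 genes. The smallest drop of a gene was in mouse 2 for 30 genes and in mouse 4 for 16, and the largest was in mouse 3 for 23 and in mouse 1 for 20. The labels give mice 1 and 2 another animal ID prefix than mice 3 and 4, and each prefix held 1 mouse with a large and 1 with a small difference. In mice 1 and 2 alone the median log2 fold change was -1.59 and 47 of 50 values lay below 0; in mice 3 and 4 alone it was -1.52 and all 50 did.

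**Figure D4:**
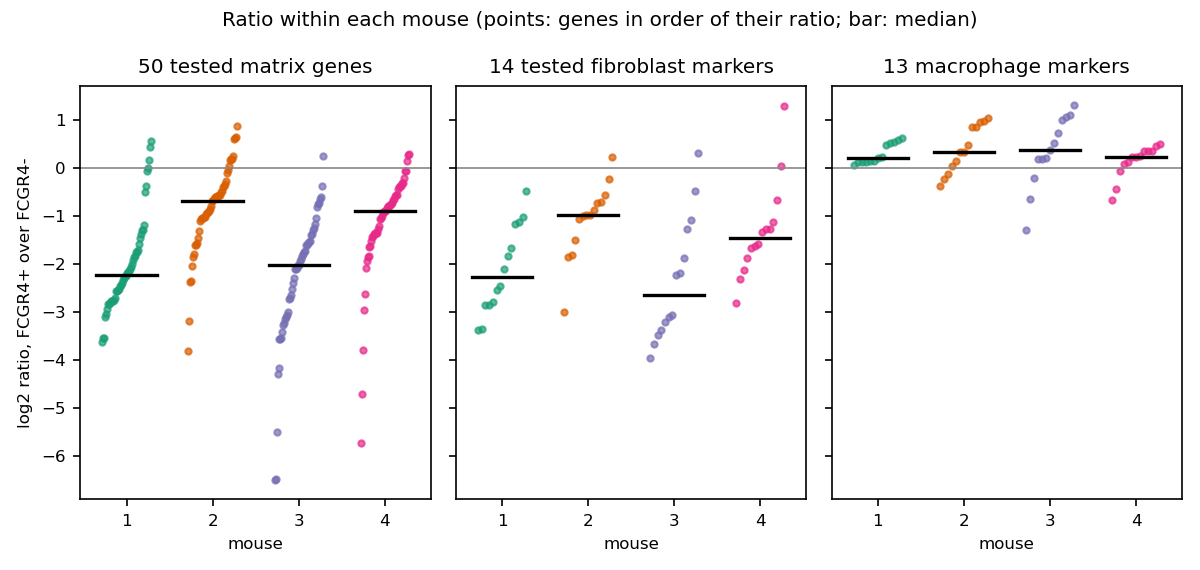
Log2 ratio of FCGR4+ over FCGR4- within each mouse (y axis) for the 50 tested matrix genes, 14 tested fibroblast markers that are not matrix proteins and 13 macrophage markers; each point is a gene and the bar is the median. Matrix genes and fibroblast markers both have their lowest medians in mice 1 and 3, and the macrophage medians lie between 0.21 and 0.39.

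Markers of cells outside the macrophage gate moved as well. Of 14 tested fibroblast markers that code for no matrix protein, 7 fell and 0 rose, with a median log2 fold change of -1.91. They were *Pdgfra* (-2.22) and *Pdgfrb* (-2.32), receptors for platelet-derived growth factor, the progenitor markers *Dpp4* (-1.92), *Pi16* (-2.31) and *Cd34* (-2.08), and *Cd248* (-2.54) and *Scara5* (-2.10). The number that passed was 0 without mouse 1, 5 without mouse 2, 3 without mouse 3 and 1 without mouse 4, and it was 3 without the replicate block and 11 by DESeq2. Their medians by mouse were -2.28, -0.97, -2.65 and -1.46, lowest in mice 1 and 3 and highest in mouse 2, as for the matrix genes. The summed level of the 15 listed markers was 499.7 to 878 CPM in FCGR4+ and 638 to 1476 CPM in FCGR4- libraries, lower in 4 of 4 mice. *Gsn* (gelsolin, 456 ± 72 and 809 ± 277 CPM, SD, n = 4) and *Ly6a* (154 ± 154 and 98.8 ± 62.3 CPM), which immune cells also express, made up most of that sum. None of the 15 was at or below 3 counts in every library. The CD45+ gate is meant to leave fibroblasts out, and the part of such cells or of their free RNA in the matrix result was not tested.

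**Figure D5:**
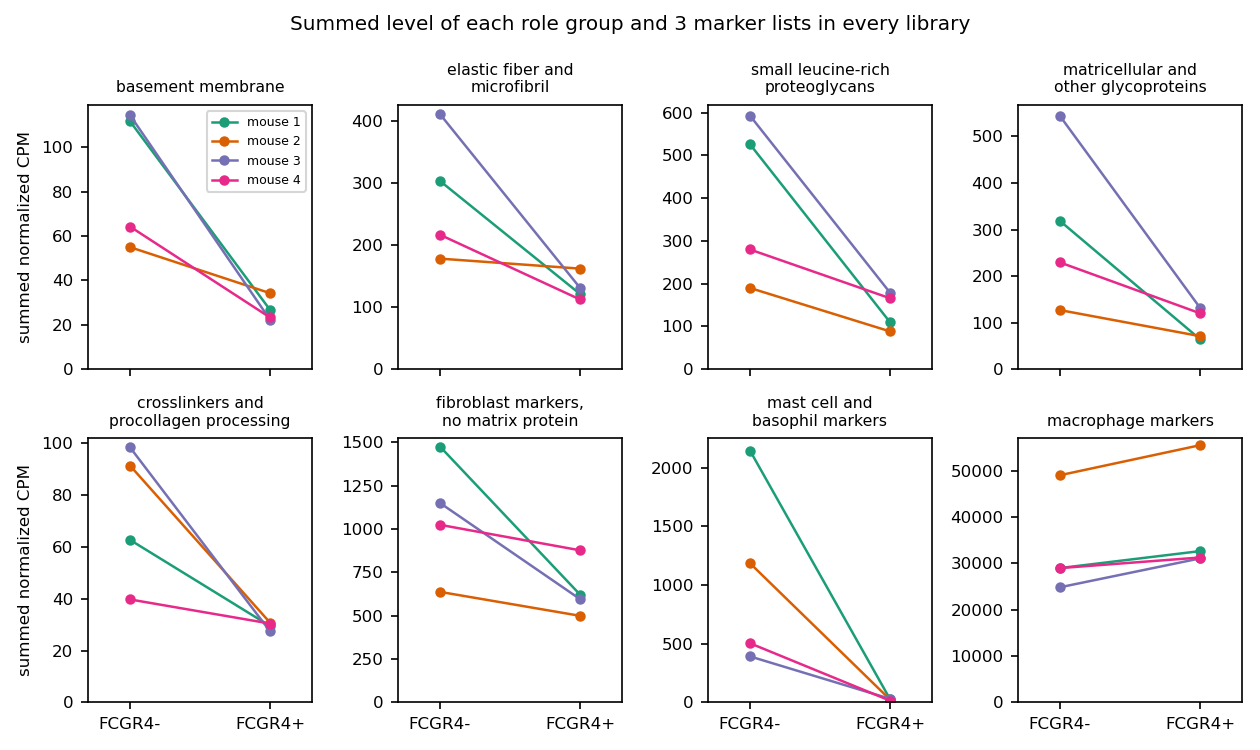
Summed normalized CPM (linear axis from 0, own range per panel) of the 5 role groups and of 3 marker lists in each library, with 1 line per mouse. The role groups and the fibroblast markers are lower in FCGR4+ cells in every mouse, the mast cell and basophil markers are near 0 there, and the macrophage markers are slightly higher.

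Markers of further cell types were measured as well. Of 9 tested mesothelial markers 1 fell (*Msln*, mesothelin, -2.23), and the list summed to 1.91 to 15.3 CPM in FCGR4+ and 6.8 to 62.5 CPM in FCGR4- libraries. *Msln* did not pass without mouse 1, 2 or 3 or without the replicate block, and it passed by DESeq2. By mouse, the median log2 ratio was -1.90, -1.84, -2.07 and 0.18 for the mesothelial and -1.64, -1.91, -1.47 and 0.32 for the endothelial markers, highest in mouse 4 for both lists, where the matrix genes had their highest median in mouse 2. In the paired edgeR fit, 0 of 11 endothelial, 0 of 8 mural and 0 of 9 adipocyte markers passed, with 3, 2 and 0 lower and 0 higher at an unadjusted p under 0.05, and 2, 2 and 0 lower by DESeq2. With no filter on low counts 3 of 12 endothelial and 2 of 10 mural markers passed as lower, as did 2 of 8 mural markers by edgeR's newer method. The sums in FCGR4+ and FCGR4- libraries were 6.9 to 22.8 and 13.2 to 22.4 CPM for the endothelial list, 4.64 to 9.29 and 7.39 to 16.5 CPM for the mural list and 21.1 to 28.4 and 25.6 to 33 CPM for the adipocyte list. Markers of other leukocytes that passed were lower in FCGR4+ cells as well: 9 of 10 mast cell and basophil markers, 7 of 8 T and NK cell, 5 of 6 neutrophil, 3 of 6 dendritic cell and 1 of 4 B cell markers fell in FCGR4+ cells and 0 rose. The T and NK cell count was 1 without mouse 1, 1 without mouse 2 and 2 without mouse 4, and the B cell count was 0 without mouse 1, 2 or 4. Without the replicate block, 5 mast cell and basophil markers passed and 0 of the T and NK cell, neutrophil, dendritic cell and B cell lists did, and DESeq2 called 9, 8, 6, 5 and 3 in the order of the 5 lists. The mast cell and basophil sum was 15.1 to 30.8 CPM in FCGR4+ and 392 to 2146 CPM in FCGR4- libraries, against 4.15 to 10.8 and 19.8 to 59.3 CPM for T and NK cells. Neutrophil markers summed to 55.7 to 486 and 269.7 to 2136 CPM, dendritic cell markers to 6.56 to 15.2 and 40.1 to 92.2 CPM, and B cell markers to 12 to 19.2 and 7.3 to 32.7 CPM. No marker of these lists was at or below 3 counts in every library, and their part in the matrix result was not tested.

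Matrix genes beyond the 51 were also lower where they passed. Of 44 tested genes on 5 further lists of matrix components, 4 fell and 0 rose, with a median log2 fold change of -1.28. They were *Smoc2* (-2.0 ± 0.31 SE), a basement membrane relative of SPARC, *Vcan* (-1.44 ± 0.23 SE), the large proteoglycan versican, *Ccn1* (-1.90 ± 0.32 SE), a matricellular protein, and *Bmp1* (-2.72 ± 0.38 SE), the procollagen C-proteinase that *Pcolce* enhances. Their adjusted p was 0.0528, 0.0602, 0.0666 and 0.0427 in that order. When the replicate block was dropped, 0 genes passed on each of the 5 lists, and DESeq2 called 18 lower and 0 higher. Leaving out mouse 1 kept a call on the proteoglycan list alone (1), and leaving out mouse 4 on the basement membrane list alone (1). With mouse 2 left out, 3 glycoprotein and 2 crosslinking genes passed. With mouse 3 left out, 1 basement membrane and 1 crosslinking gene passed. *Smoc2* had the highest CPM of its list, and the genes with the highest CPM of the other 4 lists did not pass. *Spp1* (osteopontin, a product of macrophages) was at 4443 ± 2529 CPM in FCGR4+ and 7053 ± 6360 CPM in FCGR4- libraries (SD, n = 4), with a log2 fold change of -0.15 ± 0.47 SE. *Srgn* (serglycin, the granule proteoglycan) was at -0.16 ± 0.21 SE, *Emilin2* at -0.53 ± 0.32 SE, and *Tgm2* (transglutaminase 2, a protein crosslinker) at -0.42 ± 0.44 SE. Together the 69 genes counted on the 5 further lists summed to 3610 to 12218 CPM in FCGR4+ and 2877.5 to 22019 CPM in FCGR4- libraries. That sum was lower in FCGR4+ cells in 2 of 4 mice and higher in 2, and the ranges overlapped.

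Cell surface receptors for these proteins and genes of TGF-β, which is held in the matrix by its binding proteins, were read from the same fit. In the paired edgeR fit, 0 of 21 tested matrix receptors (integrins, syndecans, dystroglycan and discoidin receptors among them) passed, with 8 lower and 3 higher at an unadjusted p under 0.05 and 7 lower and 2 higher by DESeq2. Other edgeR settings called 3 of 21 lower by the newer quasi-likelihood method, 3 of 17 with 10 counts in every library, 7 of 25 with no filter on low counts and 1 of 21 with scaling by library size alone. The highest CPM of the list was that of *Sdc3* (syndecan 3), at 719.8 ± 157 CPM in FCGR4+ and 662 ± 127 CPM in FCGR4- cells (SD, n = 4), with a log2 fold change of 0.11 ± 0.20 SE. Of 8 tested TGF-β ligands, receptors and carriers, 0 passed, with 0 lower and 1 higher at an unadjusted p under 0.05 and the same numbers by DESeq2. *Nrros*, which tethers latent TGF-β to myeloid cells, had the highest CPM of them, at 261 ± 80.5 and 236 ± 35.5 CPM and a log2 fold change of 0.10 ± 0.15 SE.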

How the data were processed

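Bulk RNA-Seq of FCGR4+ and FCGR4- macrophages from 4 mice gave 8 libraries, grouped by the population and mouse in the labels. The authors mapped reads to mm10 with STAR and counted read pairs on GENCODE M18 genes with featureCounts 1.6.3, without strand and with a pair of several matches counted for each match; the deposited values are these raw counts, and the gene length beside them, also the authors', was used for levels per length. All 8 sample columns were used (0 left out).

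The 17095 of 54146 genes that reached 10 counts in 4 or more libraries were scaled by TMM. The populations were compared by quasi-likelihood F test in edgeR 4.0.16 (R 4.3.3), blocking on mouse, with p adjusted over all tested genes by the Benjamini-Hochberg method and a threshold of 0.1. Standard errors are the log2 fold change over the square root of F, CPM are TMM-normalized, and ratios per mouse used a prior count of 2. Deviations of same-mouse libraries correlated (median r = 0.336 over genes, against -0.0615 between mice). No 2 libraries of a population agreed within sampling noise (chi-square per degree of freedom at least 85.0).

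The 51 genes, their role groups and all other lists were chosen with earlier results of these data known. Values in every library are given for genes past the threshold, the 2 most abundant of each group and those nearest the threshold; genes of other lists are named if past the threshold or most abundant. Alternatives were no replicate block, DESeq2 1.42.0, scaling by RLE or by library size alone, lower and higher count minimums, edgeR's newer method, a threshold of 0.05, leaving out each mouse and each ID prefix alone. P values set the difference within mice against its variation over 4 mice, with the estimate of that variation moderated across genes. Coordinates are on mm10, and promoter windows are RefSeq's.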

Additional observations from a re-analysis of the deposited data

Results flagged for a closer look

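In 3 genes the log2 ratio of 1 mouse lay far from the other 3, with a gap to the nearest, as a share of the whole range, over Dixon's critical value for 4 samples. Chance flags about 1 in 20 groups, which is 3.1 of the 62 groups examined (the 50 genes and the summed levels of both populations), so 3 is what chance gives. For *Agrn* (agrin) mouse 1 had a log2 ratio of 0.57, above 0, and the others between -0.87 and -0.75 (gap 0.919 of the range). For *Mgp* (matrix Gla protein) mouse 1 was at -2.34 and the others between -0.94 and -0.78 (0.894). For *Matn2* (matrilin 2) mouse 3 was at -3.57 and the others between -0.56 and 0.01 (0.841). None of these genes passed the test.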

How the results depend on the processing

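No setting called any of the 51 genes higher, and their median log2 fold change kept its direction under every alternative, between -1.84 and -1.34 when each mouse was left out in turn. The count of 12 genes past the threshold, all lower, and the count of 4 of the other matrix genes moved with the method. Without the replicate block they were 4 and 0 (19 of the other matrix genes had an unadjusted p under 0.05 there), although the libraries are paired by mouse. DESeq2 called 38 and 18, edgeR's newer quasi-likelihood method 30 and 18, no filter on low counts 38 and 21, a minimum of 10 counts in every library 20 of 46 and 12, and a threshold of 0.05 gave 2 and 1. Of all genes tested, 1.19% were called lower in the fit as reported, against 0.275% without the block, 4.87% by DESeq2, 3.36% by the newer method, 2.35% with no filter, 1.7% with the higher minimum and 0.433% at 0.05, so the counts over the whole table moved the same way. Leaving out each mouse gave 3 to 10 and 1 to 5, mice 1 and 2 alone 3 and 2, and mice 3 and 4 alone 2 of the 51 genes, where 0.48% to 0.901%, 0.62% and 0.491% of all tested genes were called lower. RLE size factors and library size alone kept both counts within 1.5 times. *Fcgr4* passed in every setting. Among 696 values of single genes, 536 kept direction and side of the threshold, 65 lost significance, 83 gained it and 12 changed sign, in 3 genes near 0. *Ltbp3* was -0.00048 by DESeq2, -0.00042 by RLE, -0.0848 by library size alone, -0.0125 with the higher minimum, -0.0808 in mice 3 and 4, and -0.0897 to 0.127 without single mice. *Loxl3* was -0.0547 by library size alone, -0.346 in mice 3 and 4, and -0.164 to 0.232 without single mice, and *Emilin1* was 0.24 in mice 1 and 2. The cause of these shifts was not tested. Genes well below 1 CPM in FCGR4+ cells, *Lama2*, *Ltbp2* and *Tnc* among them, rest on few counts there. With 4 mice, a change in such genes or in others may go undetected.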
